A study of Sus scrofa with 23 samples.

Results

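The genes described here are the leukocyte CD antigens, chemokines, interleukins and Toll-like receptors, with the receptors and binding proteins of these families, in tissue of growing pigs. A gene was taken when its symbol on the array platform was CD followed by digits and at most 1 letter, or began with CCL, CXCL, CCR, CXCR, TLR or IL followed by a digit. The rule found 103 of the 6765 genes that carried a single symbol. They comprised 19 chemokine ligands, 7 chemokine receptors, 18 interleukins, 13 interleukin receptors and binding proteins, 6 Toll-like receptors and 40 CD antigens. Of the 103 genes, 76 had a single probe set and 27 had several, and the probe set of highest mean over all samples stood for the gene.

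Expression was measured on a porcine Affymetrix array in 23 samples, 1 array each. The animals were the offspring of German Landrace gilts, and every group carried the same gestational low-protein (LP) diet, so ages can be compared and diets cannot. The groups were 94 days post conception (94 dpc, before birth, 5 samples) and 1, 28 and 188 days post natum (dpn, 6 samples each), as the abbreviations are usually read. No stage between 94 dpc and 1 dpn was sampled. A change said below to occur at birth is the difference between these stages, and it may have begun before birth. Each stage drew on 3 gilts, and no label ties an animal to its dam, so animals of a stage can be siblings, and the p-values, which treat them as independent, may be too small. The labels call the tissue liver while the series title names muscle. Muscle genes were far brighter: the median of 15 skeletal muscle markers lay at percentile 99.3 to 99.8 of all probe sets in the 4 stages, and that of 18 hepatocyte markers at percentile 38.4 to 64.2.

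Chemokines are small secreted proteins that guide leukocytes along gradients through G protein-coupled receptors, and interleukins carry signals among leukocytes and between leukocytes and other cells. Toll-like receptors recognise microbial molecules. CD antigens are surface molecules named by antibody typing of leukocytes, and the name covers lineage markers of T cells, B cells and macrophages as well as proteins such as the tetraspanins and complement regulators that most cells carry. In skeletal muscle, resident macrophages, lymphocytes and endothelial cells account for much of what these families are known for, and some members, such as IL15 and CXCL12, are also made by muscle or stromal cells. In bulk tissue, fewer cells of a type and less RNA per cell cannot be told apart.

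All signals are linear intensities scaled by array. Apart from the check of the tissue above, different probe sets are set against each other only by brightness on the array. This covers the median of all probe sets, words such as bright, dim or low, and sums over marker lists. A dim or low signal does not by itself show low expression. The arrays had nearly equal trimmed means (500.1 to 500.2), and median signals of 120.8 to 168.8. In 3 samples of 1 dpn (replicates 2, 4 and 5) the ratio of the 5' to the 3' GAPDH control probe sets lay between 0.0868 and 0.148, while the other 20 samples lay between 1.09 and 1.29. Those of 1 dpn were also the least alike, with a median pairwise correlation across probe sets of 0.9046 against 0.9313 to 0.9513 at the other stages. The 5' to 3' ratio of the Dap control probe sets lay between 0.0511 and 0.0978 at 28 dpn and between 0.264 and 0.359 at 188 dpn. At 94 dpc it was 0.3701 to 0.4091 in replicates 1 to 3, and 0.09164 and 0.06222 in replicates 4 and 5. At 1 dpn it was 0.06567 to 0.07172 in the 3 samples of low GAPDH ratio and 0.1735 to 0.3607 in the others. The actin ratio was 0.8169 to 1.009 in those 3 samples and 0.9992 to 1.214 in the others. The part of the Dap ratio in differences between stages was not tested. Calls described below that were lost without the 3 samples of low GAPDH ratio are given with that value. A fit without them has fewer arrays at 1 dpn, so a call can also be lost because the test is weaker. Which of these applied to a lost call was not tested.

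Many members varied with age, and most often they were highest at 28 dpn. A moderated F test over the 4 stages (limma, Benjamini-Hochberg adjusted over 23999 probe sets, called at an adjusted p under 0.05) passed 52 of the 103 members, or 50.5%, while 46.6% of all probe sets passed, so the share of members that varied was close to that of the array. The stage of the highest mean was less like the array. It was 28 dpn for 41 members (39.8%) and for 14.8% of all probe sets, and among those called by the F test it was 28 dpn for 23 members (44.2%) against 9.57%. The mean was highest at 94 dpc for 20 members, at 1 dpn for 26 and at 188 dpn for 16. By family, the F test passed 14 of 19 chemokine ligands, 1 of 7 chemokine receptors, 6 of 18 interleukins, 8 of 13 interleukin receptors and binding proteins, 1 of 6 Toll-like receptors and 22 of 40 CD antigens. In 51 members the mean of some stage exceeded the median of all probe sets, a signal of 143, and 52 members stayed below it in every stage. The F test passed 42 of the former and 10 of the latter. Over the array it likewise passed 9704 of 13877 probe sets above that median and 1481 of 10122 below it.

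**Figure D1:**
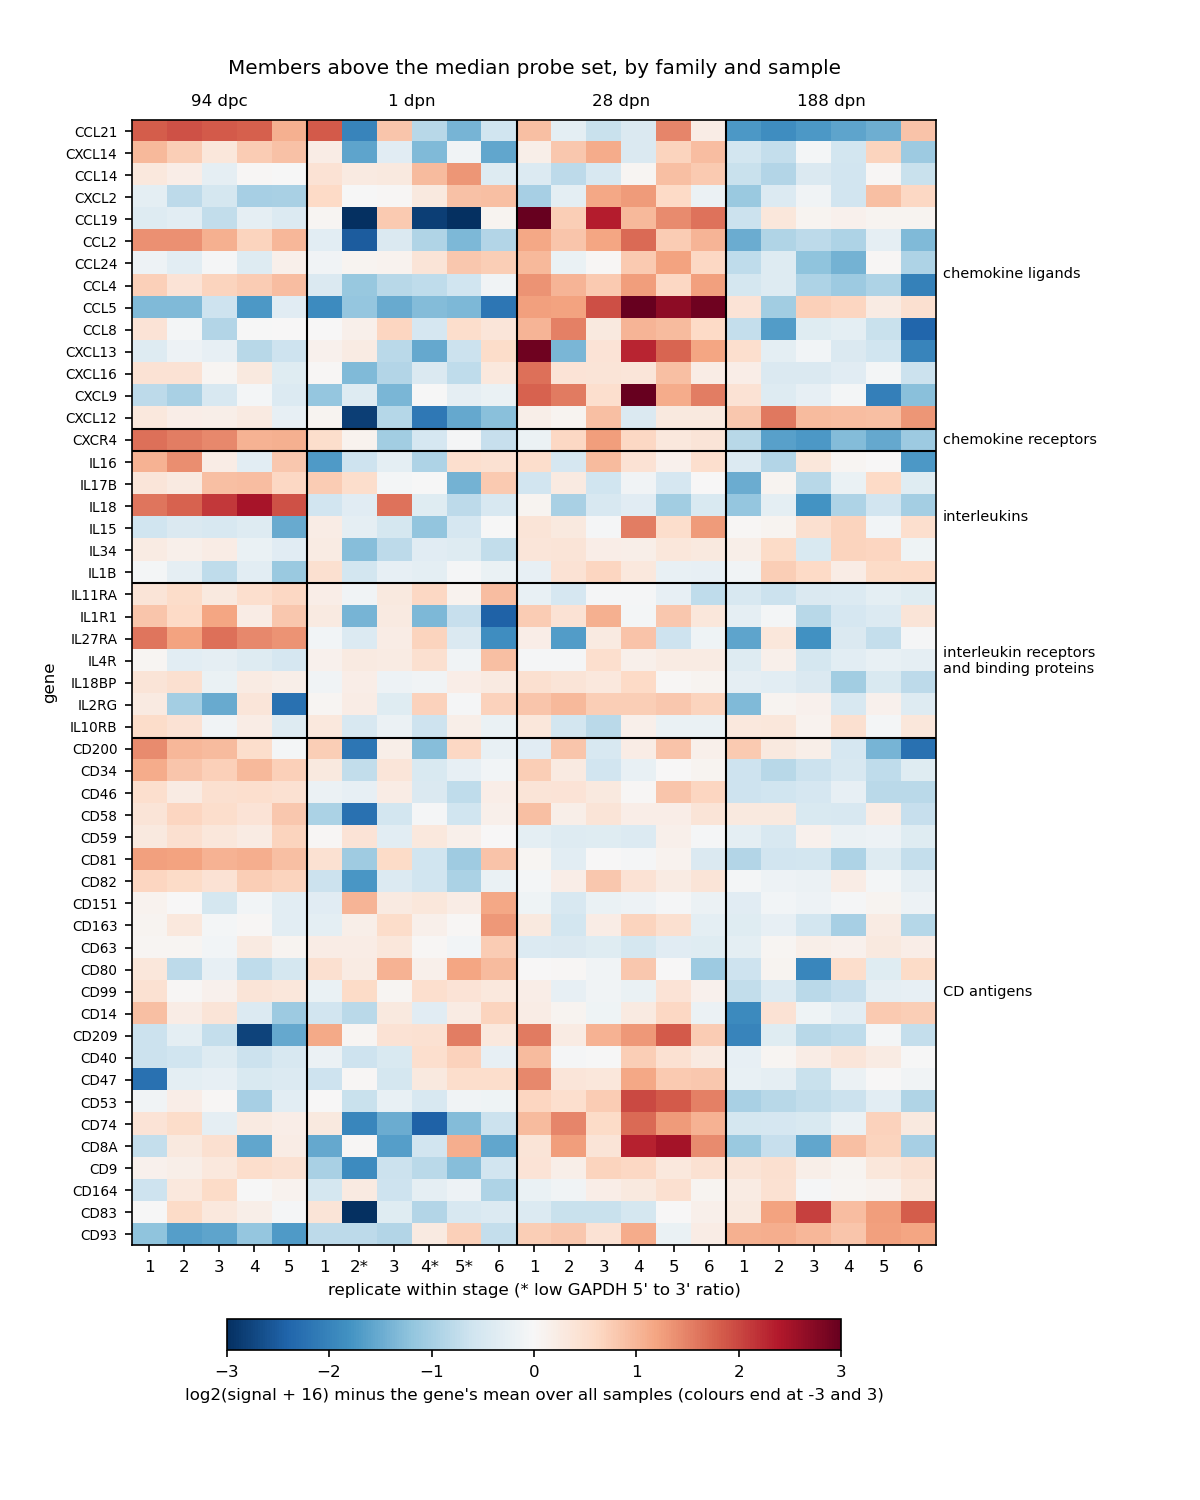
Heat map of the 51 members whose mean exceeded the median probe set in some stage, by family (rows) and sample (columns). Colour is log2(signal + 16) minus the gene's mean over the 23 samples, red above and blue below, and asterisks mark the 3 samples of 1 dpn with a low GAPDH ratio. CCL5, CXCL9 and CD53 are red at 28 dpn, and IL18, IL27RA and CXCR4 at 94 dpc.

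Between consecutive stages the balance of rises and falls turned over. From 94 dpc to 1 dpn 13 members were called higher and 16 lower. These are shares of 12.6% and 15.5%, beside 8.08% and 17.9% of all probe sets. From 1 dpn to 28 dpn 23 were called higher and 4 lower, shares of 22.3% and 3.88% beside 10.1% and 7.03% of all probe sets. From 28 dpn to 188 dpn 2 were called higher and 20 lower, shares of 1.94% and 19.4% beside 4.66% and 9.15%. The median log2 change of the members in these steps was 0.08, 0.26 and -0.38, and that of all probe sets -0.11, 0.03 and -0.03. A closer background is the 6765 genes with a single symbol, each taken, as the members were, by its brightest probe set. Of these, 13.7% were called higher and 19.5% lower in the first step. The shares were 13.5% and 10.7% in the second step and 5.79% and 12.5% in the third. The 12.6% of members higher at birth lay below the 13.7% of these genes. The called shares of all probe sets given below run lower than those of these genes. Consecutive comparisons share the samples of the stage between them, so their directions are not independent.

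Fewer members were separated so far that no sample of one stage reached the other. From 94 dpc to 1 dpn 4 members lay wholly above and 11 wholly below the earlier samples, beside 4.20% and 9.66% of all probe sets. From 1 dpn to 28 dpn these counts were 10 and 1, beside 4.14% and 2.70%, and from 28 dpn to 188 dpn 2 and 14, beside 4.45% and 6.41%. Against 94 dpc, 12 members lay wholly above and 7 wholly below at 28 dpn (7.83% and 12.8% of all probe sets), and 5 and 15 at 188 dpn (10.7% and 18.5%).

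Comparisons with the fetal stage gave 17 members higher and 8 lower at 28 dpn, beside 8.87% and 14.7% of all probe sets, and 9 higher and 20 lower at 188 dpn, beside 13.3% and 23.4%. Of the genes with a single symbol 14.8% were higher and 17.5% lower at 28 dpn, and 19.5% and 27.6% at 188 dpn. Of all probe sets 23.6% and 36.7% were called in either direction. These splits depended on the scaling of the arrays. Of the members called at 28 dpn, 68.0% were higher in the deposited scaling, 73.3% with quantile normalization and 85.3% with each array centred on its median. At 188 dpn it was 31.0%, 41.7% and 57.1%, and for 1 dpn against 94 dpc 44.8%, 48.5% and 55.9%. The array-wide median log2 change moved with it, at 188 dpn against 94 dpc from -0.077 to 0.077 and 0.217, and at 1 dpn against 94 dpc from -0.108 to 0.038 and 0.165. The direction of no called member turned under any of these scalings. For the step from 1 dpn to 28 dpn the share was 85.2%, 83.3% and 81.8%, and for 28 dpn to 188 dpn 9.09%, 10.5% and 15.8%.

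**Figure D2:**
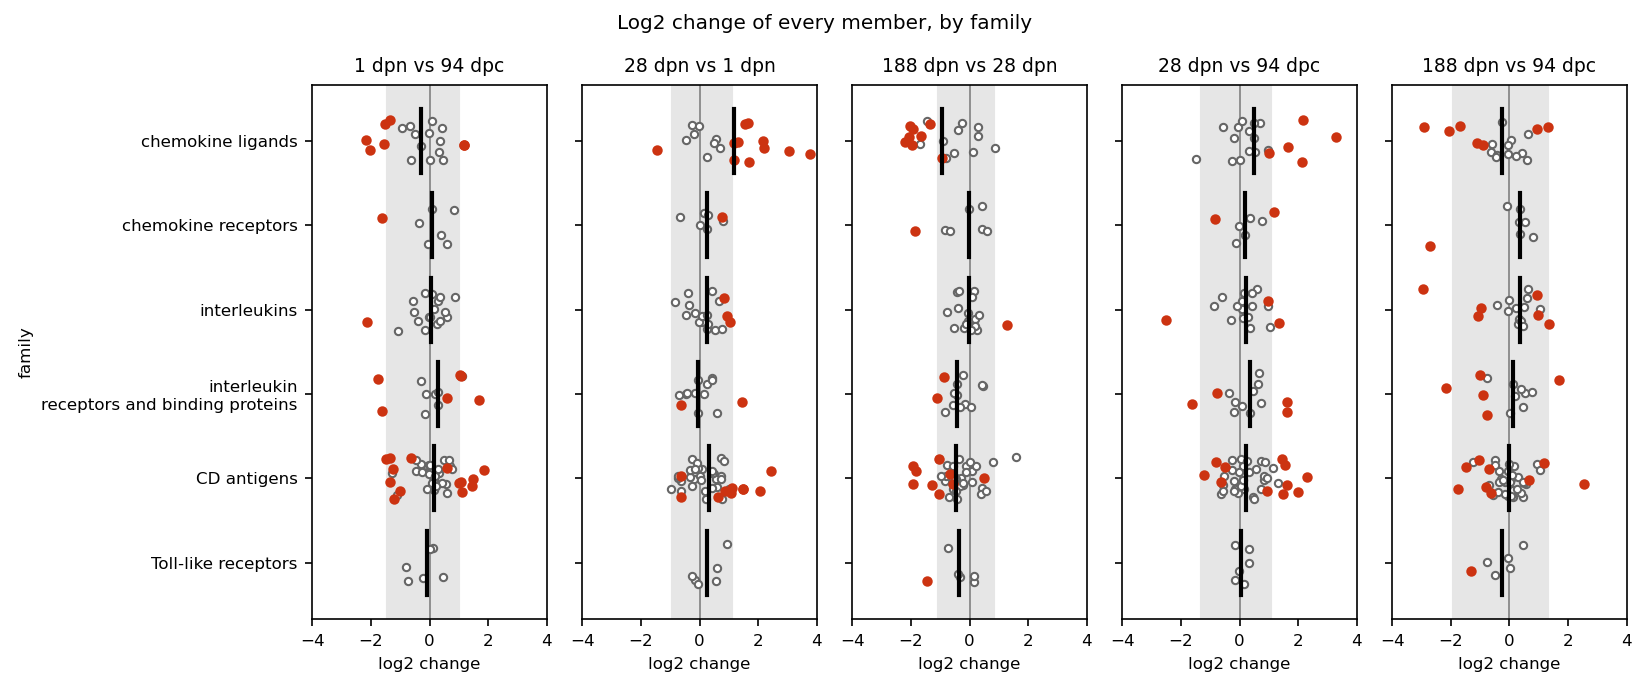
Log2 change of each of the 103 members (points, horizontal axis) by family (vertical axis) in the 5 comparisons. Filled red points passed the limma test at an adjusted p under 0.05, open points did not, black bars are family medians, and the grey band spans percentiles 5 to 95 of all probe sets. The chemokine ligands have a median of 1.16 from 1 dpn to 28 dpn and of -0.94 from 28 dpn to 188 dpn.

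Many chemokine ligands were called around 28 dpn, and differences between families were not tested. From 1 dpn to 28 dpn 10 of 19 were called higher and 1 lower, beside 10.1% and 7.03% of all probe sets, and from 28 dpn to 188 dpn 8 were called lower, beside 9.15%. Their median log2 change was 1.16 in the first of these steps and -0.94 in the second. From 94 dpc to 1 dpn 2 were called higher and 5 lower, beside 8.08% and 17.9%.

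CCL5, a chemoattractant of T cells, eosinophils and monocytes that is made by activated T and NK cells, had the largest rise among the members. Its signals at 94 dpc were 32.6, 32.8, 63.1, 21.2 and 80.2, and at 1 dpn they ran from 11.3 (median 29.3) to 38.4. At 28 dpn the lowest was 266, the median 609 and the highest 1223, and at 188 dpn 43.1, 149.6 and 186. All 28 dpn samples lay above all others, and the 188 dpn samples overlapped only with those of 94 dpc. The log2 change was 3.78 ± 0.36 (SE) from 1 dpn to 28 dpn (13.8-fold, adjusted p = 2.3e-07), 3.29 ± 0.38 from 94 dpc to 28 dpn (adjusted p = 1.2e-06), and -1.98 ± 0.36 from 28 dpn to 188 dpn (adjusted p = 0.00056). CCL5 did not return to its fetal signal: at 188 dpn it was still 2.48-fold above 94 dpc (log2 change 1.31 ± 0.38, adjusted p = 0.008).

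CXCL9, a chemokine induced by interferon gamma that draws CXCR3-bearing T cells, was high at 28 dpn alone. Its fetal signals were 50.8, 42.6, 66.5, 94.6 and 71.0. It ran from 28.5 (median 75.5) to 98.7 at 1 dpn, from 148 (median 321) to 1070.4 at 28 dpn, and from 11.9 (median 76.2) to 140.5 at 188 dpn. Every 28 dpn sample exceeded every other sample, and the other 3 stages overlapped. The rise from 1 dpn was 4.56-fold (log2 change 2.19 ± 0.40, adjusted p = 0.00051) and the fall to 188 dpn 4.64-fold (log2 change -2.21 ± 0.40, adjusted p = 0.00054). Replicate 4 at 28 dpn was far above the other 5 (148 to 378), and the calls held without it.

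CCL2 and CCL4, which draw monocytes and, for CCL4, also T and NK cells, had 2 high and 2 low stages. CCL2 read 739.5, 740.1, 593, 444 and 569 at 94 dpc, fell to between 35.8 and 216 (median 140.3) at 1 dpn, stood between 475 and 934 (median 600.5) at 28 dpn, and between 88.4 and 225 (median 137) at 188 dpn. The high and the low stages did not overlap, while within each pair they did. By log2 change CCL2 fell by 2.17 ± 0.30 at birth (adjusted p = 1.3e-05), rose by 2.17 ± 0.29 to 28 dpn (adjusted p = 1.6e-05) and fell by 2.05 ± 0.29 to 188 dpn (adjusted p = 4e-05). From 94 dpc to 28 dpn the log2 change was 0.01 ± 0.30.

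CCL4 followed the same order. Its fetal signals were 512, 412, 492, 531 and 594. They lay at 130.2 to 283 (median 185) at 1 dpn, 476 to 801 (median 686) at 28 dpn and 63.0 to 229 (median 153) at 188 dpn. Again no sample of 94 or 28 dpn reached down to the others. The log2 changes were -1.34 ± 0.24 (adjusted p = 0.00022), 1.69 ± 0.23 (adjusted p = 2.3e-05) and -2.02 ± 0.23 (adjusted p = 3.6e-06).

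CCL19, a ligand of CCR7 that guides dendritic cells and naive T cells into lymphoid tissue, was split at 1 dpn along the GAPDH ratio. At 94 dpc it read 169, 179.8, 129.5, 185 and 167. At 1 dpn the 3 samples of low GAPDH ratio read 13.8, 18.2 and 9.35 and the others 237, 401 and 241. It ran from 386 (median 681) to 2055 at 28 dpn and from 139.8 (median 241) to 292 at 188 dpn. The samples of 28 dpn lay above those of 94 and 188 dpn, and the highest of 1 dpn reached into them. CCL19 rose 8.36-fold from 1 dpn to 28 dpn (log2 change 3.06 ± 0.57, adjusted p = 0.00061), and without the 3 samples the log2 change was 1.39, still called. The rise from 94 dpc to 28 dpn compares other stages (log2 change 2.12 ± 0.60, adjusted p = 0.012). The 3 samples enter its SE and p-value, because all stages share 1 estimate of the spread. The later difference, a log2 change of -1.69 ± 0.57 to 188 dpn, did not pass (adjusted p = 0.052). It passed without the 3 samples (adjusted p = 0.00067), and without any single sample of 1 dpn or replicate 2 of 28 dpn (adjusted p = 0.028 to 0.043).

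**Figure D3:**
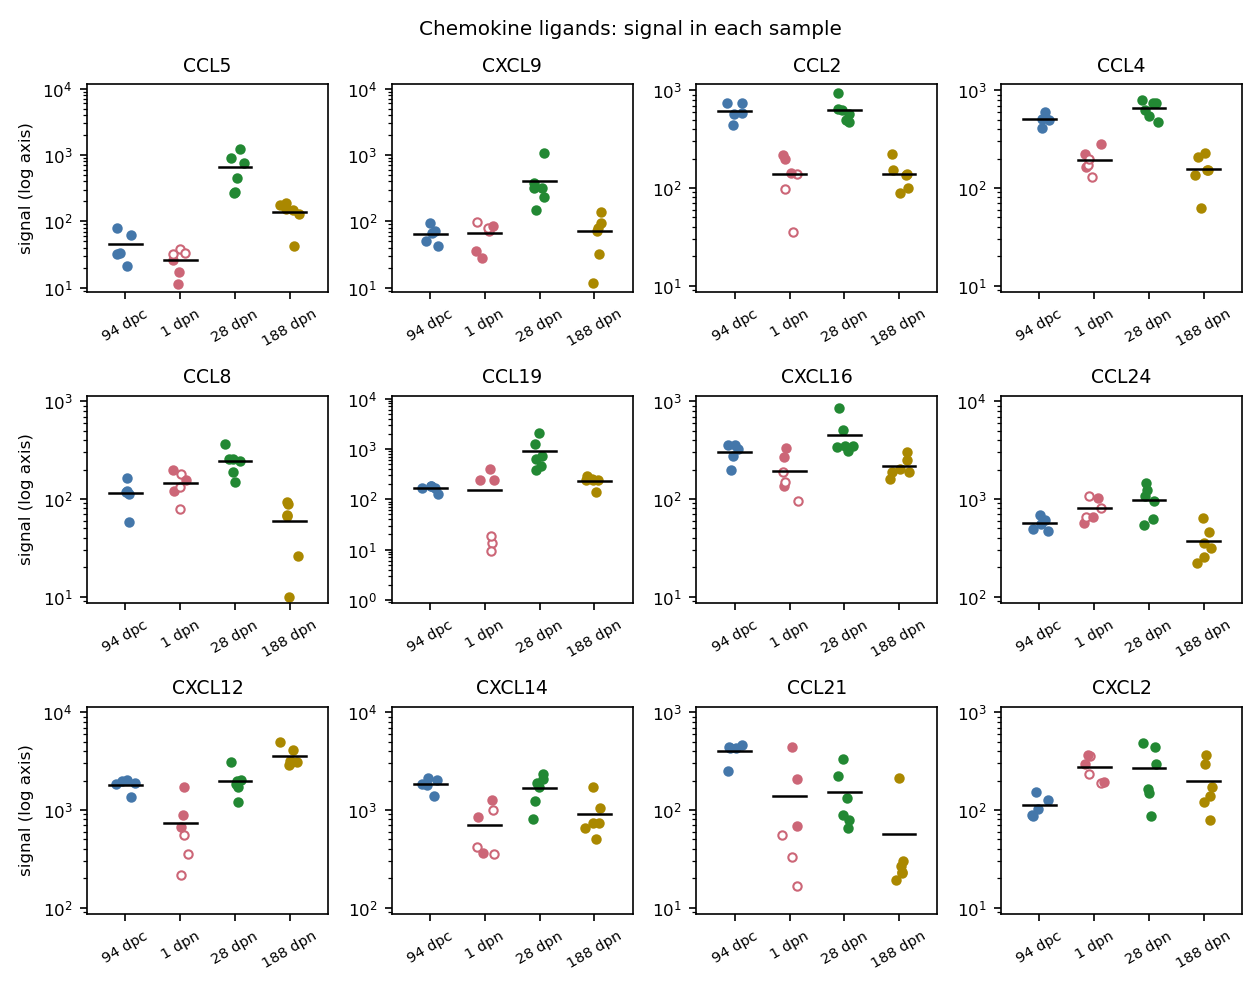
Signals (log axis) of 12 chemokine ligands in each sample by stage, with black bars for stage means and open circles for the 3 samples of 1 dpn with a low GAPDH ratio. CCL5 and CXCL9 stand above all other samples at 28 dpn, CCL2 and CCL4 are high at 94 dpc and 28 dpn, and CXCL12 is highest at 188 dpn.

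Further ligands were lower at 188 dpn than at 28 dpn. CCL8, an attractant of monocytes, fell 3.78-fold, from 149.8 to 368 at 28 dpn (median 252) to 10.0 to 93.5 at 188 dpn (median 67.4), with no overlap (log2 change -1.92 ± 0.32, adjusted p = 0.0002). CCL24, an eosinophil attractant, fell from 976 ± 349 (SD, n = 6) to 375 ± 153 (log2 change -1.35 ± 0.26, adjusted p = 0.00096), with overlapping samples. The fall of CCL24 was called under every alternative, and that of CCL8 under every alternative but the filter on dimmer probe sets, which left it out. CXCL16, a membrane-bound ligand of CXCR6, had a mean of 195 ± 89.3 at 1 dpn, 452 ± 209.7 at 28 dpn and 216 ± 50.9 at 188 dpn. Its fall to 188 dpn (log2 change -0.94 ± 0.27, adjusted p = 0.02) was lost without replicate 1 of 28 dpn, which read 856 against 307 to 507 in the others (adjusted p = 0.06), and after quantile normalization (adjusted p = 0.05). Its rise from 1 dpn (log2 change 1.16 ± 0.27, adjusted p = 0.0041) was lost without the 3 samples of low GAPDH ratio (adjusted p = 0.085).

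CXCL13, the B cell attractant of lymphoid follicles, had means of 54.7, 67.4, 296 and 60.4 from 94 dpc to 188 dpn, with an SD of 248 at 28 dpn. Its change passed narrowly from 1 dpn to 28 dpn (log2 change 1.54 ± 0.53, adjusted p = 0.047). That call was lost without any of 16 single samples, namely all of 94 dpc, 1 dpn replicates 3, 4 and 5, 28 dpn replicates 1, 4, 5 and 6 and 188 dpn replicates 2 to 5 (adjusted p up to 0.13), and without the 3 samples of low GAPDH ratio (adjusted p = 0.25). CCL3L1, close kin of the monocyte attractant CCL3, passed as narrowly in that step (log2 change 1.19 ± 0.39, adjusted p = 0.038). It lost its call without any sample of 1 dpn or without replicate 4, 5 or 6 of 28 dpn (adjusted p up to 0.095), and without the 3 samples of low GAPDH ratio together (adjusted p = 0.16).

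A second group of ligands is known for steady production by stromal and endothelial cells. CXCL12, which retains and guides CXCR4-bearing cells, read 2018, 1874, 1830.0, 1977 and 1372 at 94 dpc. It ran from 218 (median 611) to 1723 at 1 dpn, from 1199 (median 1926) to 3082 at 28 dpn and from 2867 (median 3148) to 4938 at 188 dpn. The 1 dpn samples were mostly the low ones and overlapped with 94 dpc through replicate 1, and all of 188 dpn lay above all of 94 dpc. CXCL12 fell at birth (log2 change -1.56 ± 0.35, adjusted p = 0.0016) and rose to 28 dpn (1.65 ± 0.33, adjusted p = 0.0012). A second probe set gave the same calls in both steps (log2 changes -1.50 and 0.97). The probe sets differed at 188 dpn against 94 dpc, where the first gave 0.95 ± 0.35 (adjusted p = 0.034) and the second -0.74 (adjusted p = 0.076), and the mean of both did not pass (adjusted p = 0.79). That call was also lost after quantile normalization (adjusted p = 0.051) and when 94 dpc replicate 2, 3 or 5 was left out, or 188 dpn replicate 2 or 6 (adjusted p = 0.053, 0.056, 0.085, 0.075 and 0.062).

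CXCL14, a chemokine of epithelia and connective tissue that acts on monocytes and immature dendritic cells, was also low after birth. It read 2135, 1805, 1378, 1845 and 2015 at 94 dpc, and from 353 (median 638) to 1258 at 1 dpn, with no overlap. It stood at 802 to 2354 (median 1804) at 28 dpn and 501 to 1735 (median 731) at 188 dpn, both overlapping with the stage before. The fall was 2.86-fold (log2 change -1.52 ± 0.35, adjusted p = 0.0023) and the rise to 28 dpn 2.49-fold (1.32 ± 0.33, adjusted p = 0.0079), and its second probe set passed in both steps (-1.55 and 1.50). Without the samples of low GAPDH ratio the rise did not pass (adjusted p = 0.071).

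CCL21, the other CCR7 ligand, made by lymphatic endothelium, fell over the whole span. Its fetal signals were 431, 462, 438, 427 and 249.5, and 5 of the 6 samples of 188 dpn read 19.3 to 30.2, with replicate 6 at 215. No sample of 188 dpn reached 94 dpc, and the log2 change was -2.93 ± 0.57 (7.60-fold, adjusted p = 0.00023). Between them it was scattered, from 16.5 (median 62.3) to 442 at 1 dpn and from 64.8 (median 112) to 337 at 28 dpn. The fall by 1 dpn (log2 change -2.03 ± 0.57, adjusted p = 0.0099) was lost without the 3 samples of low GAPDH ratio (adjusted p = 0.26).

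CXCL2, a neutrophil attractant, and CCL27 were the ligands that rose at birth. CXCL2 read 152, 103, 126, 87.3 and 88.0 at 94 dpc and 188 to 366 (median 267) at 1 dpn, with no overlap, and 86.7 to 482 and 79.6 to 366 at the later stages, which overlapped with both. Its rise was 2.25-fold (log2 change 1.17 ± 0.38, adjusted p = 0.024). The call was lost without the samples of low GAPDH ratio (adjusted p = 0.065), and when 94 dpc replicate 4 or 5 was left out, or 1 dpn replicate 5 (adjusted p = 0.056, 0.056 and 0.05). The F test over the stages did not pass for CXCL2 (adjusted p = 0.055). CCL27, an attractant of T cells to skin, rose by 1.19 ± 0.41 on the log2 scale (adjusted p = 0.036) and then fell by 1.44 ± 0.39 (adjusted p = 0.013), and neither call held without the samples of low GAPDH ratio (adjusted p = 0.43 and 0.27). The rise of CCL27 was also lost when 94 dpc replicate 3, 4 or 5 was left out, or 1 dpn replicate 1, 2, 4 or 5 (adjusted p = 0.069 to 0.11).

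The other ligands passed no comparison. CCL14, a monocyte attractant, had means of 643, 926, 685 and 431 in order of age and passed the F test alone (adjusted p = 0.04). CXCL8, another neutrophil attractant, had means of 11.9 to 27.0, and CCL25 and CCL28, ligands of mucosal tissues, of 9.61 to 34.1.

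Of the 7 chemokine receptors only CXCR4 passed the F test and only it exceeded the median probe set. CXCR4, the receptor of CXCL12 on leukocytes, endothelial cells and muscle progenitors, read 2871, 2629, 2465, 1853 and 1885 at 94 dpc. It ran from 431 (median 752) to 1304 at 1 dpn, from 787 (median 1283) to 2152 at 28 dpn and from 262 (median 326) to 497 at 188 dpn. The fetal samples lay above all of 1 and 188 dpn, and those of 188 dpn below all of 94 and 28 dpn. CXCR4 fell 3.07-fold at birth (log2 change -1.62 ± 0.27, adjusted p = 8.9e-05) and 3.61-fold from 28 dpn to 188 dpn (-1.85 ± 0.26, adjusted p = 3.2e-05). Over the whole span it fell 6.48-fold (-2.70 ± 0.27, adjusted p = 2.8e-08). CXCR4 was lowest at the stage where the brighter probe set of its ligand CXCL12 was highest.

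The step of CXCR4 between the falls was less stable: its log2 change of 0.77 ± 0.26 from 1 dpn to 28 dpn (adjusted p = 0.038) was lost without any of 7 samples (1 dpn replicates 3, 4 and 6, 28 dpn replicates 2, 3, 4 and 6; adjusted p = 0.055 to 0.1). It was also lost without the 3 samples of low GAPDH ratio, at a log2 change of 0.90 (adjusted p = 0.069), with arrays centred on their median (adjusted p = 0.059) and with the compared stages alone (adjusted p = 0.12). Its difference between 94 and 28 dpn (-0.84 ± 0.27, adjusted p = 0.024) was lost when 94 dpc replicate 1, 2 or 3 was left out, or 28 dpn replicate 1 (adjusted p = 0.052 to 0.064).

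The remaining receptors had stage means of 16.6 to 116. CCR1, a receptor of CCL5 and other inflammatory chemokines, read 20.9, 40.7, 89.1, 43.2 and 50.6 at 94 dpc, 55.0 to 105 at 1 dpn, 58.6 to 119 at 28 dpn and 10.4 to 111 at 188 dpn, overlapping throughout. It passed no comparison (F test adjusted p = 0.064). CCR3, the eosinophil receptor of CCL24, had a log2 change of 1.18 ± 0.41 from 94 dpc to 28 dpn (adjusted p = 0.039), lost when 94 dpc replicate 1, 2 or 4 was left out, or 28 dpn replicate 1, 2, 4, 5 or 6 (adjusted p = 0.055 to 0.11). CCR2, CCR7, CCR9 and CXCR6 were not called in any comparison.

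Among the interleukins, IL18 gave the largest difference. IL18, a cytokine of the IL-1 family made as a precursor by macrophages and epithelia and known for inducing interferon gamma, read 667, 749, 951, 1219.9 and 821 at 94 dpc. After birth it ran from 114 (median 151) to 670.3 at 1 dpn, from 93.1 (median 146) to 219 at 28 dpn and from 48.9 (median 97.3) to 167 at 188 dpn. Only replicate 3 of 1 dpn, at 670.3, reached the lowest fetal sample, and the other 5 read 114 to 159. The fall at birth was 4.38-fold (log2 change -2.13 ± 0.34, adjusted p = 6.3e-05), and 188 dpn was 7.68-fold below 94 dpc (-2.94 ± 0.34, adjusted p = 2.9e-07). IL18BP, which binds and neutralises IL18, took another course. It read 459.9, 488, 299, 412 and 395 at 94 dpc, 312 to 423 (median 362) at 1 dpn, 358 to 531 (median 447) at 28 dpn and 159 to 286 (median 251) at 188 dpn, where every sample was below every sample of the other stages. It fell 1.83-fold from 28 dpn to 188 dpn (log2 change -0.87 ± 0.17, adjusted p = 0.0011), with values of -0.16 ± 0.18 and 0.26 ± 0.17 in the steps before.

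IL15, a growth factor of NK and memory CD8 T cells that muscle fibres also make, was higher at the later stages. It read 93.2, 107, 103, 110.2 and 42.5 at 94 dpc, 56.7 to 176 (median 111) at 1 dpn, 146 to 463 (median 212) at 28 dpn and 141 to 247 (median 188) at 188 dpn. Both later stages lay above all fetal samples, with log2 changes of 1.35 ± 0.29 (2.55-fold, adjusted p = 0.0013) and 0.97 ± 0.29 (1.96-fold, adjusted p = 0.0099) from 94 dpc. These 2 calls held under every alternative. The step from 1 dpn to 28 dpn (1.05 ± 0.27, adjusted p = 0.0099) did not pass without the 3 samples of low GAPDH ratio (adjusted p = 0.13).

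IL34, a ligand of the macrophage growth factor receptor CSF1R, had means of 300.1 ± 56.9 (SD, n = 5), 206 ± 81.6, 363 ± 23.3 and 364 ± 112 (n = 6 each) in order of age. It rose 1.80-fold from 1 dpn to 28 dpn (log2 change 0.85 ± 0.23, adjusted p = 0.011), a call that was lost without the same samples (adjusted p = 0.074). IL1B, a main inflammatory cytokine, had means of 245, 317, 383 and 477, and was 1.92-fold higher at 188 dpn than at 94 dpc (0.94 ± 0.24, adjusted p = 0.0028). Its second, dimmer probe set gave -0.03 between these stages (adjusted p = 0.97), and the mean of both did not pass (adjusted p = 0.14). The second probe set was called lower at 28 dpn than at 1 dpn (-1.48, adjusted p = 0.007) and 94 dpc (-1.17, adjusted p = 0.031). It was then called higher at 188 dpn than at 28 dpn (1.14, adjusted p = 0.041). The brighter probe set was called in none of these comparisons. Like IL1B, IL1A was called at 188 dpn against 94 dpc (1.35 ± 0.38, adjusted p = 0.0068). That probe set had stage means of 30.7 to 105, and the mean of the IL1A probe sets did not pass (adjusted p = 0.088). A few further interleukins were called narrowly. IL7, a survival factor of lymphocytes, was higher at 28 dpn than at 1 dpn (0.94 ± 0.31, adjusted p = 0.037), at means of 11.5 to 37.5. IL16, an attractant of CD4 T cells, and IL17B were lower at 188 dpn than at 94 dpc (-1.06 ± 0.41 and -0.98 ± 0.36, adjusted p = 0.044 and 0.032). Each of these 3 calls was lost without some single samples. For IL7 these were 1 dpn replicates 1, 2 and 6 and 28 dpn replicates 1, 2, 3, 4 and 6 (adjusted p up to 0.085), and the 3 samples of low GAPDH ratio together (adjusted p = 0.11). For IL16 they were 94 dpc replicates 1, 2 and 5 and 188 dpn replicates 1, 2 and 6 (adjusted p up to 0.13). For IL17B they were 94 dpc replicates 3, 4 and 5 and 188 dpn replicates 1 and 3 (adjusted p up to 0.09).

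The cytokines that define T helper responses gave low signals. IL2, IL4, IL5, IL13, IL17A and IL21 had stage means between 4.35 and 74.7, and IL6, IL10, IL12A and IL12B between 3.52 and 97.7, all under the median probe set, and none of these 10 genes was called in any comparison. At such signals a change would have to be large to pass, and absence of a call does not show that they were constant.

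Among the receptors and binding proteins of interleukins, the fetal stage was the high one for IL27RA and IL11RA. IL27RA, a receptor chain for IL-27 on T and NK cells, read 245, 184, 257, 220.0 and 203 at 94 dpc. Later samples ran from 7.61 (median 57.5) to 121 at 1 dpn, from 11.0 (median 73.5) to 140.0 at 28 dpn and from 8.59 (median 42.1) to 93.7 at 188 dpn, so that all later samples lay below all fetal ones. It fell 3.41-fold at birth (log2 change -1.77 ± 0.44, adjusted p = 0.0042) and stayed lower, by 2.16 ± 0.44 on the log2 scale at 188 dpn (adjusted p = 0.00038). The later stages overlapped, with log2 changes of 0.14 ± 0.42 and -0.53 ± 0.42 between them.

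IL11RA, the receptor of IL-11 on stromal and muscle cells, was bright and fell later. Fetal signals were 2249.6, 2502, 2096, 2435 and 2637. It ran from 1595 (median 2030.3) to 3259 at 1 dpn, from 1005 (median 1455) to 1683 at 28 dpn and from 1089 (median 1273) to 1403 at 188 dpn. The 2 later stages overlapped with each other and not with 94 dpc. The log2 change from 94 dpc was -0.76 ± 0.18 at 28 dpn (adjusted p = 0.0033) and -0.91 ± 0.18 at 188 dpn (adjusted p = 0.00031).

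IL2RG, IL2RA, IL4R and IL6R were lowest at 94 dpc, while IL1R1 was highest there. IL2RG, the gamma chain shared by the receptors of IL-2, IL-4, IL-7, IL-15 and IL-21, had means of 60.9 ± 54.4, 113 ± 37.2, 172 ± 14.0 and 76.3 ± 30.1. It was 3.07-fold higher at 28 dpn than at 94 dpc (log2 change 1.62 ± 0.37, adjusted p = 0.0023), a call held under every alternative but the filter on dimmer probe sets, which left it out. IL2RA, the alpha chain of the high-affinity IL-2 receptor on activated and regulatory T cells, read 2.47 to 6.78 at 94 dpc and 24.7 to 74.7 at 1 dpn, with no overlap. Its log2 change was 1.68 ± 0.41 (adjusted p = 0.0032), between signals that all lie in the dim part of the array. CTLA4, another gene of activated and regulatory T cells and not a member, had a log2 change of 1.93 ± 0.31 in that step (adjusted p = 5.8e-05), from a mean of 8.67 to 81.0. IL4R, the receptor of IL-4, was 1.53-fold higher at 1 dpn than at 94 dpc (0.61 ± 0.18, adjusted p = 0.015), and the mean of its 2 probe sets did not pass (adjusted p = 0.071). IL1R1, the signalling receptor of IL-1, fell from 219 ± 55.4 to 76.1 ± 60.7 at birth (-1.61 ± 0.37, adjusted p = 0.0021) and rose to 194 ± 56.4 at 28 dpn (1.44 ± 0.35, adjusted p = 0.0059). Its dimmer second probe set gave 0.41 and -0.31 in those steps, and the means of both did not pass (adjusted p = 0.12 and 0.16). The rise was also lost with the 3 samples of low GAPDH ratio left out (adjusted p = 0.085). IL6R, the receptor of IL-6, was higher at 1 dpn than at 94 dpc (1.08 ± 0.33, adjusted p = 0.018) at means of 4.69 and 32.5, and lost the call without 1 dpn replicate 5 alone and without all 3 samples of low GAPDH ratio (both adjusted p = 0.051). IL7R, IL10RB, IL12RB2, IL13RA1 and IL18R1 were not called in any comparison.

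**Figure D4:**
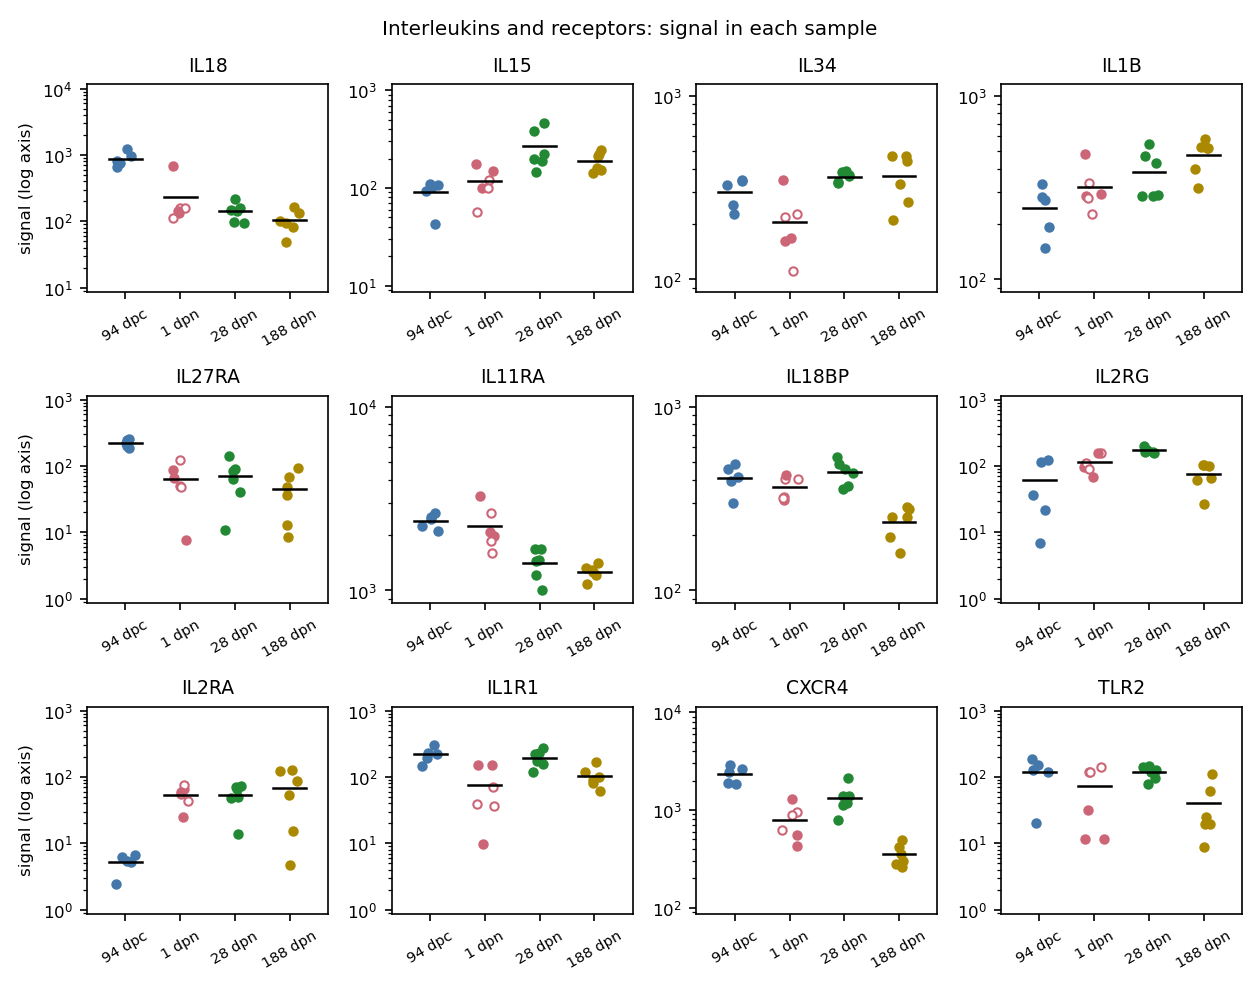
Signals (log axis) of 12 interleukins and receptors in each sample by stage, with black bars for stage means and open circles for the 3 samples of 1 dpn with a low GAPDH ratio. IL18, IL27RA and CXCR4 are highest at 94 dpc, IL15 is above the fetal samples at 28 and 188 dpn, and IL18BP is lowest at 188 dpn.

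All 6 Toll-like receptors were below the median probe set in every stage. TLR2, which senses bacterial lipoproteins, was the only one that passed the F test (adjusted p = 0.047). It read 20.5, 149, 118, 127 and 189 at 94 dpc, and ran from 11.6 to 141 at 1 dpn, 78.6 to 148 at 28 dpn and 8.91 to 111 at 188 dpn, overlapping throughout. Its fall from 28 dpn to 188 dpn (log2 change -1.44 ± 0.48, adjusted p = 0.046) was lost without any of 13 single samples, namely 94 dpc replicates 2, 3 and 4, all of 28 dpn and 188 dpn replicates 2, 4, 5 and 6 (adjusted p = 0.052 to 0.11). At 1 dpn the 3 samples of low GAPDH ratio read 141, 117 and 119 and the others 11.6, 11.8 and 31.5, and without the former TLR2 passed as lower at 1 dpn than at 94 dpc (adjusted p = 0.0099).

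TLR4, the lipopolysaccharide receptor, read 106, 98.9, 110.2, 111 and 215 at 94 dpc. At 1 dpn it ran from 29.9 (median 60.9) to 134, at 28 dpn from 75.3 (median 109) to 159 and at 188 dpn from 50.9 (median 87.6) to 131, so that all stages overlapped. It passed no comparison (F test adjusted p = 0.1). With the samples of low GAPDH ratio left out it too passed at 1 dpn against 94 dpc (adjusted p = 0.0051), as it did without replicate 2 or 5 of 1 dpn alone (adjusted p = 0.032 and 0.017). TLR1, TLR6, TLR8 and TLR9 had stage means of 8.22 to 65.5 and no call. A dimmer probe set of TLR1 was called higher at 188 dpn than at 94 dpc (0.96, adjusted p = 0.016), as was the mean of its probe sets. For TLR4 a dimmer probe set was called higher at 28 dpn than at 94 dpc (1.05, adjusted p = 0.038), and its others in no comparison.

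Of the 22 CD antigens that passed the F test, 8 had their highest mean at 28 dpn. CD53, a tetraspanin of leukocytes, read 301, 373, 334, 154 and 256 at 94 dpc. It ran from 199 (median 284) to 328 at 1 dpn, from 465 (median 754) to 1317 at 28 dpn and from 157 (median 180.4) to 256 at 188 dpn. The 28 dpn samples did not overlap with any other stage. CD53 rose 2.77-fold from 1 dpn (log2 change 1.47 ± 0.25, adjusted p = 0.00027) and fell 3.85-fold to 188 dpn (-1.94 ± 0.25, adjusted p = 1.8e-05). A second probe set passed in both steps (2.22 and -1.93), and the third only in the fall (-0.13 and -1.21).

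CD74, the invariant chain that chaperones MHC class II in antigen-presenting cells, read 448, 496, 271, 404 and 385 at 94 dpc. It ran from 48.1 (median 117) to 410.3 at 1 dpn, from 504 (median 761) to 1115 at 28 dpn and from 226 (median 264) to 543 at 188 dpn. All 28 dpn samples lay above 94 and 1 dpn, and only replicate 5 of 188 dpn reached into them. The rise from 1 dpn was 5.37-fold (log2 change 2.43 ± 0.34, adjusted p = 3.2e-05) and the fall to 188 dpn 2.43-fold (-1.28 ± 0.34, adjusted p = 0.013). Against 94 dpc the 28 dpn samples did not overlap and the log2 change of 0.93 ± 0.36 did not pass (adjusted p = 0.062). It passed without 1 dpn replicate 1 or 4 or 28 dpn replicate 3 (adjusted p = 0.022, 0.04 and 0.046). The fall at birth (-1.49 ± 0.36, adjusted p = 0.003) did not pass without the samples of low GAPDH ratio (adjusted p = 0.088).

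CD209, the lectin of dendritic cells and tissue macrophages, was high for longer. Fetal signals were 138, 182, 132, 19.2 and 67.9. They ran from 237 (median 313) to 687 at 1 dpn, from 272 (median 536) to 847 at 28 dpn and from 45.2 (median 129) to 215 at 188 dpn. The 1 and 28 dpn samples overlapped with each other and lay above all of 94 and 188 dpn. CD209 rose 3.60-fold at birth (log2 change 1.85 ± 0.40, adjusted p = 0.0013) and fell 3.79-fold from 28 dpn to 188 dpn (-1.92 ± 0.38, adjusted p = 0.0013).

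CD8A, the alpha chain of the coreceptor of cytotoxic T cells, was under the median probe set outside 28 dpn. Its means were 38.8 ± 26.1, 30.3 ± 40.2, 159.8 ± 106 and 35.8 ± 37.9 in order of age. It rose 4.22-fold from 1 dpn to 28 dpn (log2 change 2.08 ± 0.52, adjusted p = 0.0077). Its fall to 188 dpn (-1.84 ± 0.52, adjusted p = 0.02) was lost without 28 dpn replicate 4 or 5 or 188 dpn replicate 3 (adjusted p = 0.052, 0.053 and 0.054). CD8B and CD3D passed no comparison, and CD3E was 2.28-fold higher at 188 dpn than at 94 dpc (1.19 ± 0.34, adjusted p = 0.0076), from means of 35.4 to 93.2. CD86, a costimulatory ligand on antigen-presenting cells, rose from 17.9 ± 4.70 at 94 dpc to 92.7 ± 54.4 at 28 dpn (1.50 ± 0.37, adjusted p = 0.0047).

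CD40, a receptor of antigen-presenting cells and of endothelium, read 90.4, 92.9, 111, 89.0 and 103 at 94 dpc, 91.2 to 250.4 at 1 dpn, 144 to 305 at 28 dpn and 123 to 198 at 188 dpn, and the 2 last stages lay above the fetal one. The rise to 28 dpn was 1.92-fold (log2 change 0.94 ± 0.23, adjusted p = 0.0043), and the mean of its 3 probe sets just missed (adjusted p = 0.057). The macrophage antigens CD14 and CD163 passed no comparison, with means of 134 to 153 and 234 to 426, and a dimmer second probe set of CD14 was called higher than at 94 dpc at 1 dpn (1.32, adjusted p = 0.015), 28 dpn (1.18, adjusted p = 0.031) and 188 dpn (1.32, adjusted p = 0.0096). CD2, CD3G, CD4, CD27, CD38 and CD247 of lymphocytes passed no comparison either, nor did CD1E, CD5L, CD164, CD180, CD200 and CD300C. Other probe sets of CD164 were called, in opposite directions, and are given below.

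Further lymphocyte and costimulatory antigens were called higher at 1 dpn than at 94 dpc alone. They were CD69, an early activation antigen (log2 change 1.48 ± 0.47, adjusted p = 0.022), CD79B, a chain of the B cell receptor (1.45 ± 0.44, adjusted p = 0.015), and CD80, a costimulatory ligand (1.07 ± 0.38, adjusted p = 0.039). None of these 3 calls held without the samples of low GAPDH ratio (adjusted p = 0.074, 0.07 and 0.062). Single samples also ended them: 94 dpc replicates 4 and 5 for CD69 (adjusted p = 0.057 and 0.068), 94 dpc replicates 1 and 2 for CD79B (adjusted p = 0.057 and 0.059), and 94 dpc replicates 2 to 5 and 1 dpn replicates 3, 5 and 6 for CD80 (adjusted p = 0.059 to 0.093).

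**Figure D5:**
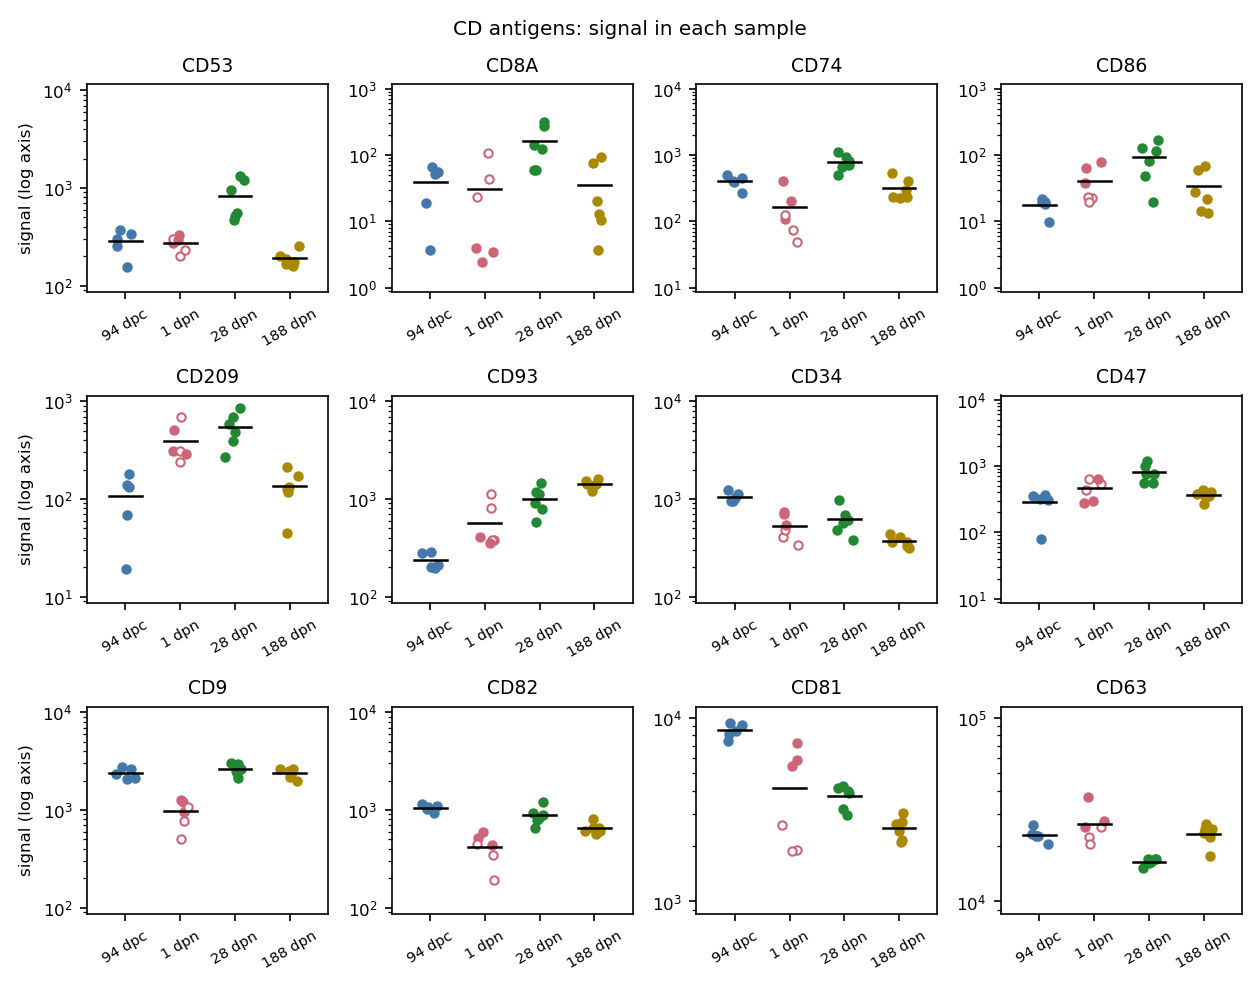
Signals (log axis) of 12 CD antigens in each sample by stage, with black bars for stage means and open circles for the 3 samples of 1 dpn with a low GAPDH ratio. CD53 stands above all other samples at 28 dpn, CD93 is highest and CD34 and CD81 are lowest at 188 dpn, and CD9 and CD82 are low at 1 dpn.

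The tetraspanins that most cells carry, scaffolds of membrane proteins, had other courses. CD9, known in muscle for its part in cell fusion, read 2097, 2150.0, 2363, 2739.7 and 2629 at 94 dpc. It ran from 504 (median 1023) to 1267 at 1 dpn, from 2152 (median 2584) to 3039 at 28 dpn and from 2001 (median 2455) to 2652 at 188 dpn. Every 1 dpn sample lay below every other sample, and the other stages overlapped. The log2 change was -1.35 ± 0.20 at birth (adjusted p = 2.3e-05) and 1.47 ± 0.19 to 28 dpn (adjusted p = 1.1e-05), and both calls held under every alternative. CD82 had a log2 change of -1.36 ± 0.22 (adjusted p = 5.6e-05) and rose by 1.10 ± 0.21 (adjusted p = 0.00065) in these steps, and its dimmer probe set passed in the first only (-0.98 and 0.44). CD151 was higher at 1 dpn than before and after (0.61 ± 0.21 and -0.65 ± 0.20, adjusted p = 0.04 and 0.031), and neither call held without the samples of low GAPDH ratio (both adjusted p = 0.13). The first was also lost when 94 dpc replicate 3, 4 or 5 was left out, or 1 dpn replicate 2 or 6 (adjusted p = 0.058 to 0.12), and the second when 1 dpn replicate 2 or 6 was left out, or 28 dpn replicate 2, 3 or 6 (adjusted p = 0.05 to 0.08).

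CD81 was highest before birth. It read 9404, 9162, 8161, 8445 and 7444 at 94 dpc, from 1886 (median 4046) to 7236 at 1 dpn, from 2942 (median 3936) to 4260.3 at 28 dpn and from 2096 (median 2537) to 3039 at 188 dpn. All fetal samples were above all others, and the 3 samples of low GAPDH ratio were the lowest of 1 dpn (1898, 2619 and 1886). CD81 was 2.29-fold lower at 28 dpn than at 94 dpc (log2 change -1.20 ± 0.29, adjusted p = 0.0035) and 3.40-fold lower at 188 dpn (-1.76 ± 0.29, adjusted p = 2.7e-05). Its fall at birth (-1.23 ± 0.29, adjusted p = 0.0024) did not pass without those samples (adjusted p = 0.064).

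CD63, a tetraspanin of lysosomes and granules, was lowest at 28 dpn. It read 22679, 22695, 20439, 26080.0 and 23176 at 94 dpc and 15201 to 17124 (median 16711) at 28 dpn, with 20457 to 37171 at 1 dpn and 17663 to 26463 at 188 dpn, and no sample of another stage reached down to the 28 dpn samples. The fall from 1 dpn was 1.57-fold (log2 change -0.65 ± 0.15, adjusted p = 0.0038). The later rise (0.49 ± 0.15, adjusted p = 0.031) was lost without any of 28 dpn replicates 1, 2 and 4 and 188 dpn replicates 3, 4, 5 and 6 (adjusted p = 0.052 to 0.068).

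CD93 and CD34 are carried by endothelial cells and by blood progenitors, and they went in opposite directions. CD93 read 280.5, 200.1, 211, 288 and 196 at 94 dpc, and ran from 356 (median 392) to 1113 at 1 dpn, from 576 (median 1013) to 1471 at 28 dpn and from 1195 (median 1429.9) to 1586 at 188 dpn. All later samples lay above all fetal ones. It was 5.77-fold higher at 188 dpn than at 94 dpc (log2 change 2.53 ± 0.27, adjusted p = 9.2e-08). The second probe set of CD93 was dim, with a mean of 32.0, and gave -0.99 at birth (adjusted p = 0.024), against 1.10 ± 0.27 (adjusted p = 0.0038) in the first, so the probe sets were called in opposite directions there. CD34 fell from 1059 ± 131 (SD, n = 5) to 533 ± 160.0 at 1 dpn (log2 change -1.02 ± 0.22, adjusted p = 0.0013) and stood at 369.6 ± 47.0 at 188 dpn, 2.79-fold below 94 dpc (-1.48 ± 0.22, adjusted p = 8.5e-06), with no overlap in either comparison. Of 20 measured endothelial and platelet markers, CD34 and CD93 among them, 1 was called higher and 11 (55.0%) lower at 1 dpn against 94 dpc, where 17.9% of all probe sets were lower. At 188 dpn 2 were higher and 12 (60.0%) lower than at 94 dpc, beside 23.4% lower.

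Proteins that shield cells from complement or phagocytes were called at several stages. CD46, a complement regulator, was high at 94 and 28 dpn (1426 ± 106 and 1438 ± 278) and lower at 188 dpn (693 ± 111), a fall of 2.04-fold from 28 dpn (log2 change -1.03 ± 0.18, adjusted p = 0.00035). Neither of its 2 dimmer probe sets moved in that step (-0.00 and 0.26), and the mean of all 3 did not pass (adjusted p = 0.59). CD59, which blocks the membrane attack complex, was 1.54-fold lower at 28 dpn than at 94 dpc (-0.63 ± 0.17, adjusted p = 0.0085), except with arrays centred on their median (adjusted p = 0.094). The dimmer probe set of CD59 did not pass there (-1.20, adjusted p = 0.092) and was called lower at 1 dpn than at 94 dpc (-2.25, adjusted p = 0.0018). CD55 passed no comparison. A dimmer probe set of CD55 was called higher from 1 dpn to 28 dpn (1.19, adjusted p = 0.017) and lower from 28 dpn to 188 dpn (-1.14, adjusted p = 0.024). CD47, the signal that restrains phagocytes, rose from 284 ± 116 at 94 dpc to 801 ± 251 at 28 dpn (1.54 ± 0.31, adjusted p = 0.00085). Its fall to 367 ± 58.5 at 188 dpn (-1.05 ± 0.30, adjusted p = 0.019) was lost without replicate 1 of 28 dpn (adjusted p = 0.053). Both dimmer probe sets of CD47 passed in that fall (-1.16 and -1.11). From 94 dpc to 28 dpn the brighter of them did not pass (-0.20, adjusted p = 0.66). The other passed there (1.18, adjusted p = 0.023), and was called lower at 1 dpn than at 94 dpc (-1.33, adjusted p = 0.0098).

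The adhesion molecule CD99 was 1.74-fold lower at 188 dpn than at 94 dpc (log2 change -0.80 ± 0.18, adjusted p = 0.001). CD58, a ligand of CD2, fell from 218 ± 29.0 to 93.5 ± 51.0 at birth (-1.26 ± 0.31, adjusted p = 0.0037). CD83, a marker of mature dendritic cells, had its highest mean, 1616 ± 674, at 188 dpn against 495 ± 130.2 at 28 dpn. The log2 change of 1.60 missed the threshold (adjusted p = 0.051) and passed without 1 dpn replicate 1 or 2 or 188 dpn replicate 1 (adjusted p = 0.04, 0.00018 and 0.038), and its second probe set passed from 28 dpn to 188 dpn (log2 change 2.58, adjusted p = 0.0014).

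The 28 dpn animals were not alike in several of the genes that were high at that age. In replicate order, CCL5 read 273, 266, 450.1, 1223, 768 and 905, and CD53 519, 465, 558, 1317, 1204 and 951. CD8A read 59.8, 122, 59.5, 270.0, 309 and 139, and IL15 200.1, 188, 146, 463, 224 and 388. These genes, picked after their values were seen, were highest in replicate 4 or 5, whereas CCL19 was highest in replicate 1 (2055) and CXCR4 in replicate 3 (2152). The 28 dpn signal of 27 members (26.2%) was highest in replicate 4, as was that of 14.7% of all probe sets. The summed signal of the 9 measured T and NK cell markers that are not members was 1055, 1044, 1231, 3799, 2130.5 and 1737 in the same order, and its part in the values of the members was not tested.

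Marker lists of leukocyte types are read here against the 10.1% of all probe sets called higher and 7.03% lower from 1 dpn to 28 dpn, and the 9.15% lower from 28 dpn to 188 dpn. Of 19 measured monocyte, macrophage and dendritic cell markers, 5 of them members, 9 (47.4%) were called higher from 1 dpn to 28 dpn and 10 (52.6%) lower from 28 dpn to 188 dpn. LAPTM5, C1QC, CTSS and AIF1 had the largest rises (log2 changes 2.57, 2.40, 1.92 and 1.80). The summed signal of the 14 markers that are not members was 7446 to 20739.7 at 28 dpn, against 5237 to 6544, 2192 to 6247 and 2661 to 4372 at 94 dpc, 1 dpn and 188 dpn, with no overlap with 28 dpn. Of 17 T and NK cell markers, 8 of them members, 3 (17.6%) were called higher from 1 dpn to 28 dpn (GNLY 2.78 ± 0.51, CD8A and KLRK1) and 3 (17.6%) lower from 28 dpn to 188 dpn (GNLY -1.83 ± 0.51, CD8A and GZMH). Of 10 pan-leukocyte markers 3 were called higher and then 5 lower, with PTPRC, the defining one, called in neither step. Of 4 measured B and plasma cell markers 2 were called higher from 94 dpc to 1 dpn, where 8.08% of all probe sets were, and all 4 missed the threshold in both later steps. Of 12 granulocyte and mast cell markers 1 (8.33%) was called higher and 2 (16.7%) lower from 1 dpn to 28 dpn. Such a rise and fall was not confined to leukocyte lists. Of 20 endothelial and platelet markers, 8 (40.0%) were called higher and 1 lower from 1 dpn to 28 dpn. From 28 dpn to 188 dpn 10 (50.0%) of them were lower. Of 16 measured cell cycle genes 7 (43.8%) were called higher and then 9 (56.2%) lower in these steps. The part of these cell types and of cell division in the changes of the members was not tested.

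Of 37 measured genes of signalling below these receptors 4 (10.8%) were called higher and 1 (2.70%) lower from 1 dpn to 28 dpn, beside 10.1% and 7.03% of all probe sets. From 28 dpn to 188 dpn 6 (16.2%) were higher and 5 (13.5%) lower, beside 4.66% and 9.15%. The rises to 28 dpn were those of the transcription factors IRF7, IRF8, STAT5A and IRF1 (log2 changes 1.96, 1.27, 1.08 and 1.07), and IRF1, induced by interferons, fell by 1.71 ± 0.21 on the log2 scale to 188 dpn. Of 30 cytokines and receptors outside the symbol rule 6 were called higher and 1 lower from 1 dpn to 28 dpn, and 7 lower from 28 dpn to 188 dpn, where 20.0% and 3.33%, and then 23.3%, stand beside the same shares of all probe sets. At 188 dpn 9 were lower than at 94 dpc, as were 23.4% of all probe sets, led by LTB, a lymphotoxin, and TGFB3 (both -2.55), TNFRSF21 (-2.08) and IFNAR2 (-1.58).

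Many rises at birth were no longer called with the 3 samples of low GAPDH ratio left out. The test is weaker with fewer arrays at 1 dpn, and a lost call need not mean a smaller change. From 1 dpn to 28 dpn the log2 change of CXCR4, given above, was larger without them and its call was lost. That of CCL19 in the same step was smaller without them and its call was kept. Which of these applied to the other lost calls was not tested. Without them 4 of the 13 members higher at 1 dpn than at 94 dpc were still called (CD209, CD93, IL2RA and IL4R), and 12 of the 16 lower ones. Among the calls lost there were CD3E (adjusted p = 0.053), IL2RG (adjusted p = 0.15) and CD46 (adjusted p = 0.18). From 1 dpn to 28 dpn 13 of the 23 higher members were still called, among them CCL2, CCL4, CCL5, CCL19, CXCL9, CD53, CD74, CD9 and CD82, and CD46 was lost (adjusted p = 0.23). Others passed in that step only then: CD40 (log2 change 0.68, adjusted p = 0.037), CD164 (0.82, adjusted p = 0.018), TLR2 and TLR4 as higher, and CD81 as lower (-0.73, adjusted p = 0.0075). CD164 also passed as lower at 1 dpn than at 94 dpc (-0.77, adjusted p = 0.018). The other probe sets of CD164 differed in direction in the fit of all samples. At 1 dpn against 94 dpc 1 was called higher (0.49, adjusted p = 0.018) and 1 lower (-1.36, adjusted p = 0.0045). From 1 dpn to 28 dpn the former gave -0.40 (adjusted p = 0.055) and the latter 1.04 (adjusted p = 0.03). CCL21 passed as lower at 28 dpn than at 94 dpc (-1.47, adjusted p = 0.031) and at 188 dpn than at 28 dpn (-1.45, adjusted p = 0.038). The falls from 28 dpn to 188 dpn, which 1 dpn samples enter only through the shared estimate of the spread, kept all 20 calls.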

How the data were processed

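The authors hybridised biotin-labelled cRNA from total RNA to 1 array per sample, per the labels' protocols, and deposited 1 intensity (signal) per probe set. The submitters' processing notes list GCOS 1.1.1, without its settings. The deposited intensities had a 2.0% trimmed mean of 500.1 to 500.2 on every array and were used as deposited. Of 24123 probe sets 124 controls were left out. Of the rest 10069 carried 1 gene symbol, 198 several and 13732 none. All 103 members matched a RefSeq gene table by gene identifier, and no sequences or coordinates were used here.

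Signals were tested as log2(signal + 16) in limma 3.58.1 (R 4.3.3), with 1 mean per stage over all 23 arrays, 5 comparisons and a moderated F test, and Benjamini-Hochberg adjustment over 23999 probe sets at 0.05. Fold changes are on that scale and understate changes of dim genes. On data simulated for 1 dpn against 94 dpc, 30 of 100 planted log2 changes of 1 and 82 of 100 of 2 were recovered among 23999 probe sets. The simulation changed the planted probe sets alone, while 25.9% of all probe sets were called in the data. The adjustment is stricter when few probe sets change, so these counts may understate recovery in the data. Members and gene lists were chosen with earlier results of these data known. Full values are given for members with the largest called, non-overlapping changes (4 rises and 4 falls per comparison) and the 2 smallest F test p-values per family; other members are given by called change or by range. The number of arrays limits the precision. Each result was recomputed under 32 other settings.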

Additional observations from a re-analysis of the deposited data

Results flagged for a closer look

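In 8 of 100 stage groups of the members with full values, 1 sample stood far from the rest by Dixon's criterion, which chance alone meets in about 1 group in 20. At 94 dpc these were all replicate 5, which also had the lowest Dap ratio of that stage. There CCL21 read 249.5 (others 427 to 462), IL15 42.5 (others 93.2 to 110.2) and TLR4 215 (others 98.9 to 111). At 1 dpn IL18 read 670.3 in replicate 3 (others 114 to 159). At 28 dpn replicate 4 stood high for CCL2 at 934 (others 475 to 644) and for CXCL9 at 1070.4 (others 148 to 378). At 188 dpn CCL19 read 139.8 in replicate 1 (others 241 to 292) and CCL21 215 in replicate 6 (others 19.3 to 30.2).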

How the results depend on the processing

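Of the calls of members, 13 of 29 (1 dpn against 94 dpc), 12 of 27 (28 against 1 dpn), 11 of 22 (188 against 28 dpn), 16 of 25 (28 dpn against 94 dpc) and 15 of 29 (188 dpn against 94 dpc) held under all alternatives that gave them a value, and no direction of a called member reversed. Members higher at 1 dpn than at 94 dpc numbered 13, 6 without the dimmer probe sets (which left 38 members) and 4 without the samples of low GAPDH ratio. Members lower at 28 dpn than at 1 dpn numbered 4, and 2 with the compared stages fitted alone. Members higher at 188 dpn than at 28 dpn numbered 2, and 4 with a pseudocount of 64, with the compared stages alone or with array weights, and 5 without the samples of low GAPDH ratio. With arrays centred on their median, 29 members were higher and 5 lower at 28 dpn, and 16 higher and 12 lower at 188 dpn, against 94 dpc. Array weights gave 27 higher at 28 dpn, and leaving out dimmer probe sets 5 higher at 188 dpn. The causes were not tested.

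Leaving out each sample in turn gave 6 to 14 higher and 16 to 18 lower at 1 dpn against 94 dpc, the lowest without 94 dpc replicate 5 and 8 without replicate 4. It gave 18 to 23 higher and 3 to 5 lower at 28 against 1 dpn, 1 to 4 higher and 13 to 22 lower at 188 against 28 dpn (13 without 28 dpn replicate 1), 13 to 19 higher and 6 to 9 lower at 28 dpn against 94 dpc, and 7 to 10 higher and 16 to 22 lower at 188 dpn against 94 dpc. The F test passed 46 to 54 members, and could not be run on the compared stages alone. No paired analysis was possible because the labels give neither replicate numbers nor dams, and the numbers here follow the order of the samples.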
